A study of Homo sapiens with 6 samples.

Results

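The insulin-like growth factor binding proteins, IGFBP1 to IGFBP7, were examined on 6 gene expression arrays of A549, an established human lung adenocarcinoma cell line. Members were all probe sets to which the platform's gene table gave exactly 1 of these 7 symbols. This gave 19 of 49395 probe sets and 7 of 18244 genes, each gene being represented by its brightest probe set. The 3 arrays labelled shTIGD1 came from cells given a lentivirus with a short hairpin RNA against TIGD1, a gene derived from a Tigger DNA transposon. The 3 arrays labelled shControl came from cells given a lentivirus with a negative control hairpin. Both groups were grown in DMEM with serum and antibiotics, so IGFs and IGFBPs of the serum were present in all cultures and are not seen by the arrays. RNA was labelled by a 3′ in vitro transcription method that reads transcripts near their 3′ ends, and values are log2 signals. Only 1 hairpin against TIGD1 was used, the time after infection is not given in the sources used here, and nothing states that the 3 arrays of a group came from separate cultures. The p-values rest on the spread among arrays, which may be technical.

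IGFBPs are secreted proteins that bind IGF-I and IGF-II in the extracellular space. They carry the ligands in blood, keep them from the IGF-I receptor, and release them when proteases such as PAPP-A cleave the binding protein. IGFBP1 to IGFBP6 bind IGFs with high affinity, IGFBP6 favours IGF-II, and IGFBP7 is a relative with low affinity for IGFs. Several members also bind integrins, proteoglycans or nuclear receptors.

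The targeted gene did not separate the groups. TIGD1 had log2 signals of 6.88, 6.84 and 6.86 on the shTIGD1 arrays, against 6.96, 6.93 and 6.85 on the shControl arrays, and the groups overlapped. The difference was -0.06 (SE 0.04, adjusted p = 0.389, limma with Benjamini-Hochberg adjustment over all genes), so the knockdown was not seen by the 1 TIGD1 probe set and the groups below are those of the labels. Array medians were 6.27 to 6.28, and arrays give no counts, so their number limits the precision. All 6 epithelial markers had mean signals over the 6 arrays of at least 8.07. EPCAM (0.87) and CDH1 (0.66), both epithelial adhesion proteins, were higher on the shTIGD1 arrays. The summed log2 signal of the 6 was 70.66 to 70.96 on the shTIGD1 arrays and 69.17 to 69.33 on the shControl arrays, a gap that EPCAM and CDH1 account for. The other 4 did not pass, with differences of 0.07 for KRT19, -0.03 for KRT18, -0.01 for KRT8 and 0.00 for KRT7. Whether this bears on the IGFBP values was not tested. The 8 fibroblast and 6 endothelial markers had means over the 6 arrays of 2.98 to 5.69, in the lower part of the signal range. Of them 1 passed the test, namely COL3A1, a fibrillar collagen, at 5.32 on the shTIGD1 arrays and 5.88 on the shControl arrays. The 6 immune markers had means over the 6 arrays of 3.14 to 8.21, and 0 passed. Not all were low: CD14 was at 8.21 in both groups. CD68 was at 7.40 on the shTIGD1 arrays and 7.36 on the shControl arrays. Of all genes 23.8% passed. In RNA of whole cultures, a change in the share of a cell type and a change in RNA per cell cannot be told apart.

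On the shTIGD1 arrays IGFBP1 and IGFBP3 were higher and IGFBP6 was lower, while IGFBP2, IGFBP4, IGFBP5 and IGFBP7 did not pass the test on their brightest probe sets. An adjusted p under 0.05 was reached by 23.8% of all genes (9.81% higher, 14% lower), so 3 of 7 IGFBP genes is not read as an excess. The median log2 difference was 0.03 over the 7 genes and -0.04 over all genes. The groups did not overlap for 5 of the 7 genes (3 higher, 2 lower), against 42.3% of all genes. By size, IGFBP1 and IGFBP3 lay near the upper end of all genes. The median absolute difference of all genes was 0.1 and its 99th percentile 0.61, and 0.143% of genes had a higher difference than IGFBP1 and 0.614% a higher one than IGFBP3.

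**Figure D1:**
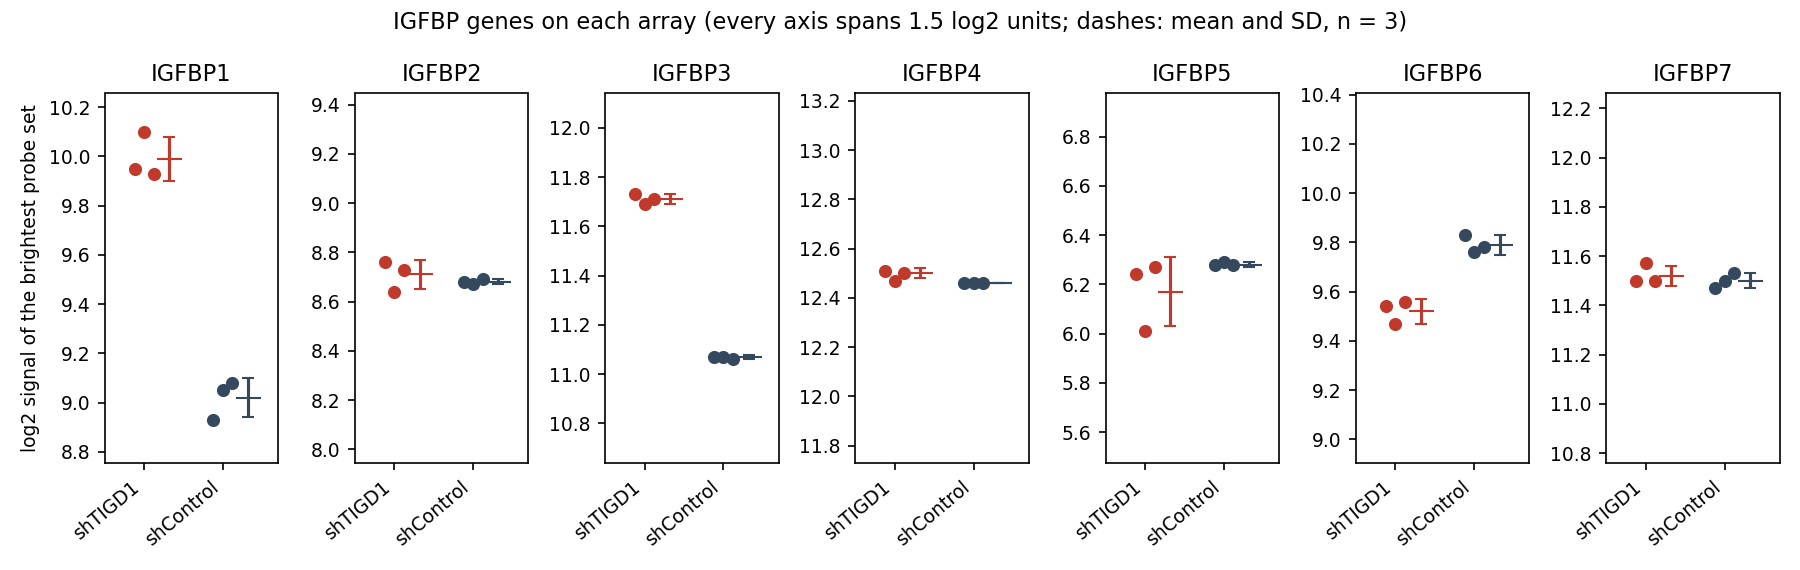
Log2 signal of the brightest probe set of each IGFBP gene on every array, shTIGD1 left of shControl in each panel. All vertical axes cover the same number of log2 units, but each is centred on its own gene, so heights cannot be compared across panels. Points are arrays, and dashes with bars are the mean and SD (n = 3). The shTIGD1 points lie clearly above the shControl points for IGFBP1 and IGFBP3 and below them for IGFBP6, and differ little elsewhere.

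IGFBP1, the binding protein that liver makes under fasting and that insulin represses, differed most. Its log2 signal was 9.95, 10.10 and 9.93 on the shTIGD1 arrays, against 8.93, 9.05 and 9.08 on the shControl arrays. Every shTIGD1 array was above every shControl array, and the gap was several times the spread within either group. The means were 9.99 ± 0.09 on the shTIGD1 arrays and 9.02 ± 0.08 on the shControl arrays (SD, n = 3 each). The difference was 0.97 (SE 0.06, 95% interval 0.82 to 1.12), a 1.96-fold higher signal (1.77 to 2.18), with adjusted p = 0.000443. IGFBP1 has 1 probe set on the array, so no other probe set can check this value. Whether its probes also match other transcripts was not tested.

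IGFBP3, the main IGF carrier of serum, had log2 signals of 11.73, 11.69 and 11.71 on the shTIGD1 arrays, against 11.07, 11.07 and 11.06 on the shControl arrays. The arrays of a group were almost equal, and the groups lay far apart by that measure. The difference was 0.64 (SE 0.03, 95% interval 0.57 to 0.72), a 1.56-fold higher signal (1.48 to 1.65; adjusted p = 0.000233). The second probe set of IGFBP3 gave 11.45, 11.53 and 11.44 on the shTIGD1 arrays and 11.08, 11.12 and 11.14 on the shControl arrays. It was higher by 0.36 (SE 0.04, adjusted p = 0.00272 over all probe sets). Both probe sets of IGFBP3 thus passed in the same direction. Within an array the brighter minus the other was 0.28, 0.16 and 0.27 on the shTIGD1 arrays, against -0.01, -0.05 and -0.08 on the shControl arrays. The difference of 0.29 had an exact two-sided permutation p of 0.1, the smallest that 3 arrays against 3 allow. The brighter probe set has a suffix that Affymetrix gives to sets with probes that may match other transcripts. Whether such matches add to its difference was not tested.

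IGFBP6, the member that favours IGF-II, was lower. It had 9.54, 9.47 and 9.56 on the shTIGD1 arrays, against 9.83, 9.76 and 9.78 on the shControl arrays. The groups did not overlap, with means of 9.52 ± 0.05 on the shTIGD1 arrays and 9.79 ± 0.04 on the shControl arrays (SD, n = 3 each). The difference was -0.27 (SE 0.04, 95% interval -0.36 to -0.17), a 1.20-fold lower signal with adjusted p = 0.00651. It rests on 1 probe set, and 5.77% of genes had a lower difference.

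Promoter windows from RefSeq (GRCh38.p14, 250 bases before to 50 after the annotated start) are shown for the 2 called members that have one and for IGFBP4, whose window resembles that of IGFBP3 in base composition and motifs. They read 5′ to 3′ on the gene's strand, and capitals mark matches on either strand. One motif searched was the TATA box, spelled TATANA. Another was the GC box, spelled GGGCGG. The IGFBP3 window lies at chr7:45921223-45921522 on the minus strand, the IGFBP4 window at chr17:40443200-40443499 and the IGFBP6 window at chr12:53097417-53097716, both on the plus strand.
IGFBP3: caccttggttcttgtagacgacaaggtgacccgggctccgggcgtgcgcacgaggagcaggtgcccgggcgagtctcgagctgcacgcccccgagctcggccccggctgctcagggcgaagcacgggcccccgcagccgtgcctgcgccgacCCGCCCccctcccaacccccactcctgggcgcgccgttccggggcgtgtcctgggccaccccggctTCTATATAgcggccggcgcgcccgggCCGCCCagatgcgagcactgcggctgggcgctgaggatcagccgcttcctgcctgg
IGFBP4: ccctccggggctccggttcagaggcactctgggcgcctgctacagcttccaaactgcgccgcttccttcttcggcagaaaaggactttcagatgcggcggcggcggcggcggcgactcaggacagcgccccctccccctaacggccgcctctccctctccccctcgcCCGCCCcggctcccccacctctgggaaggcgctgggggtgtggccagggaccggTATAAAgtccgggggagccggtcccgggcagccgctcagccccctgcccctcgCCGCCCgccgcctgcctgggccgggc
IGFBP6: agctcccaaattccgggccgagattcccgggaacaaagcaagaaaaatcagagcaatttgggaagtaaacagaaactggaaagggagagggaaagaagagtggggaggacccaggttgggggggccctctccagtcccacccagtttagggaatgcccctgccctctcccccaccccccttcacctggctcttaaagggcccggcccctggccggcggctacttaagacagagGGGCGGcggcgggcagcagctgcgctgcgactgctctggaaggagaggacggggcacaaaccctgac
Of the 7 genes, 5 had a window in the table, 7 windows in all, and IGFBP1 and IGFBP7 are named only. Positions count the annotated start as the first base, with no position 0, and bases before the start are negative. IGFBP3 had overlapping TATA matches that begin at -32 and -30 and GC boxes at -98 and -6. IGFBP4 had a TATA match at -29 and GC boxes at -83 and 25. IGFBP6 had a GC box at -17 and no TATA match. A TATA match was found in 19.0% and a GC box in 45.0% of the 35116 windows. The hypoxia response core ACGTG, which 21.4% of windows hold on either strand, was found in none of the 3 windows shown. An IGFBP2 window that is not shown had a match at 32. GC content was 74.7% for IGFBP3, 74.0% for IGFBP4 and 61.7% for IGFBP6, against a median of 58.7% over all windows. A match describes the letters of the window and not a bound site. The IGFBP4 window was picked for its likeness to that of IGFBP3. That both hold a TATA match, 2 GC boxes and a high GC content is therefore no result. Both probe sets of IGFBP3 and 3 of the 4 of IGFBP4 passed the test as higher, the exception being the brightest of IGFBP4. Another IGFBP2 window that is not shown had 70.0% GC, a GC box at -49 and no TATA match. IGFBP2 did not pass (0.03, adjusted p = 0.672 by limma). Whether the motifs bear on the signals was not tested.

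IGFBP4, an inhibitor of IGF action that PAPP-A cleaves, was read by 4 probe sets that differed among themselves. The brightest had 12.51, 12.47 and 12.50 on the shTIGD1 arrays, against 12.46 on each of the 3 shControl arrays. The groups were separate but close, and the difference of 0.04 (95% interval -0.04 to 0.11) did not pass the test (adjusted p = 0.466). The other 3 IGFBP4 probe sets were higher by 0.21 (adjusted p = 0.0136), 0.16 (0.0256) and 0.24 (0.0107). The second brightest gave 10.39, 10.46 and 10.38 on the shTIGD1 arrays and 10.18, 10.22 and 10.20 on the shControl arrays. The call at 0.16 was lost on leaving out any array other than shTIGD1 replicate 2 (adjusted p up to 0.0853). The brightest minus the mean of the others was 2.28, 2.23 and 2.27 on the shTIGD1 arrays, against 2.45, 2.41 and 2.42 on the shControl arrays, a difference of -0.17 (exact permutation p = 0.1, the smallest possible). With the mean of its probe sets IGFBP4 was higher by 0.16 (adjusted p = 0.00809), and with the second brightest by 0.21 (0.0163). The direction was upward for each of the 4 probe sets, and the call depends on which of them stands for the gene.

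IGFBP7, the low-affinity relative, showed the opposite arrangement. Its brightest probe set had 11.50, 11.57 and 11.50 on the shTIGD1 arrays, against 11.47, 11.50 and 11.53 on the shControl arrays, and the groups overlapped. The difference was 0.02 (95% interval -0.06 to 0.11, adjusted p = 0.675). The other 3 IGFBP7 probe sets, all with means under 6, had differences of -0.16 (adjusted p = 0.0288), -0.25 (0.12) and -0.14 (0.0634). The 1 that passed gave 5.69, 5.67 and 5.71 on the shTIGD1 arrays and 5.86, 5.81 and 5.90 on the shControl arrays. Its call ended without any single array other than shControl replicate 2 (adjusted p up to 0.0868). The brightest minus the mean of the others was 6.49, 6.58 and 6.39 on the shTIGD1 arrays, against 6.28, 6.24 and 6.31 on the shControl arrays, a difference of 0.21 (exact permutation p = 0.1). A gene value taken as the mean of the probe sets would be -0.13 (adjusted p = 0.0339), so no direction is given for IGFBP7.

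IGFBP2, a member with an integrin-binding motif, had 8.76, 8.64 and 8.73 on the shTIGD1 arrays, against 8.68, 8.67 and 8.69 on the shControl arrays. The shControl values lay within the shTIGD1 range, and the difference of 0.03 had a 95% interval of -0.07 to 0.13 (adjusted p = 0.672). IGFBP5, a matrix-bound member known from bone and muscle, had 6.24, 6.01 and 6.27 on the shTIGD1 arrays, against 6.28, 6.29 and 6.28 on the shControl arrays. The lowest of the 6 was shTIGD1 replicate 2, and the other shTIGD1 arrays lay just under the shControl arrays. The difference of -0.11 did not pass the test (95% interval -0.28 to 0.06, adjusted p = 0.315). The other 5 IGFBP5 probe sets had means of 3.20 to 5.06 and differences of -0.23 to 0.19, and 0 of the 6 passed.

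Over the 19 probe sets, 6 were higher and 2 lower and 11 did not pass, against 22% of all 49293 probe sets called, with 11.5% higher and 10.6% lower. The 6 that were higher belong to IGFBP1, IGFBP3 and IGFBP4, and probe sets of 1 gene share its transcripts and are not independent. The groups did not overlap for 12 of the 19 (8 higher, 4 lower), against 40.9% of all probe sets. Of the 8 probe sets with means under 6 in both groups, 0 were higher and 1 was lower.

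**Figure D2:**
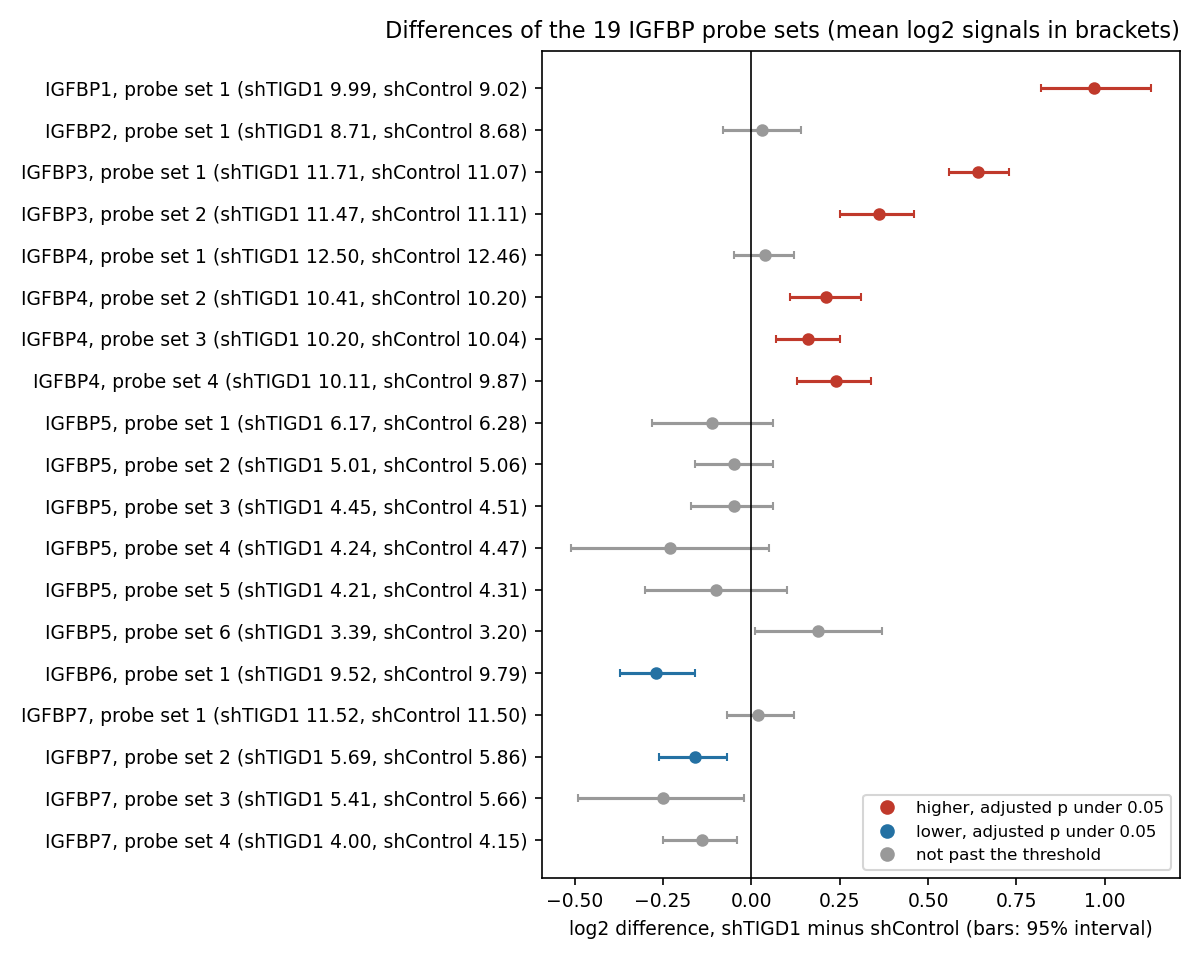
Log2 difference (shTIGD1 minus shControl) of each of the 19 IGFBP probe sets, ordered by gene and brightness, with 95% intervals; mean signals stand in brackets and colours give the call. IGFBP1 (0.97) and both IGFBP3 probe sets (0.64 and 0.36) lie farthest to the right, and the IGFBP4 and IGFBP7 probe sets spread across the threshold.

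The deposited normalization makes the arrays' distributions alike, so differences are relative to the other genes. Levelling the arrays on 7 hybridization control probe sets moved the median difference of all genes to 0.18, and levelling on 12 poly-A control probe sets moved it to 0.29. IGFBP1 was then higher by 1.19 on the hybridization controls and 1.30 on the poly-A controls, and IGFBP3 by 0.86 and 0.96. IGFBP6 was -0.05 (adjusted p = 0.309) on the hybridization controls and 0.06 (0.539) on the poly-A controls, so its direction holds only relative to the other genes. IGFBP5 changed sign to 0.11 and 0.21. Either scaling shifts all genes of an array equally, so the order of the differences stays as it is. TIGD1 was 0.16 (adjusted p = 0.0181) and 0.27 (0.0121) under the control scalings.

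**Figure D3:**
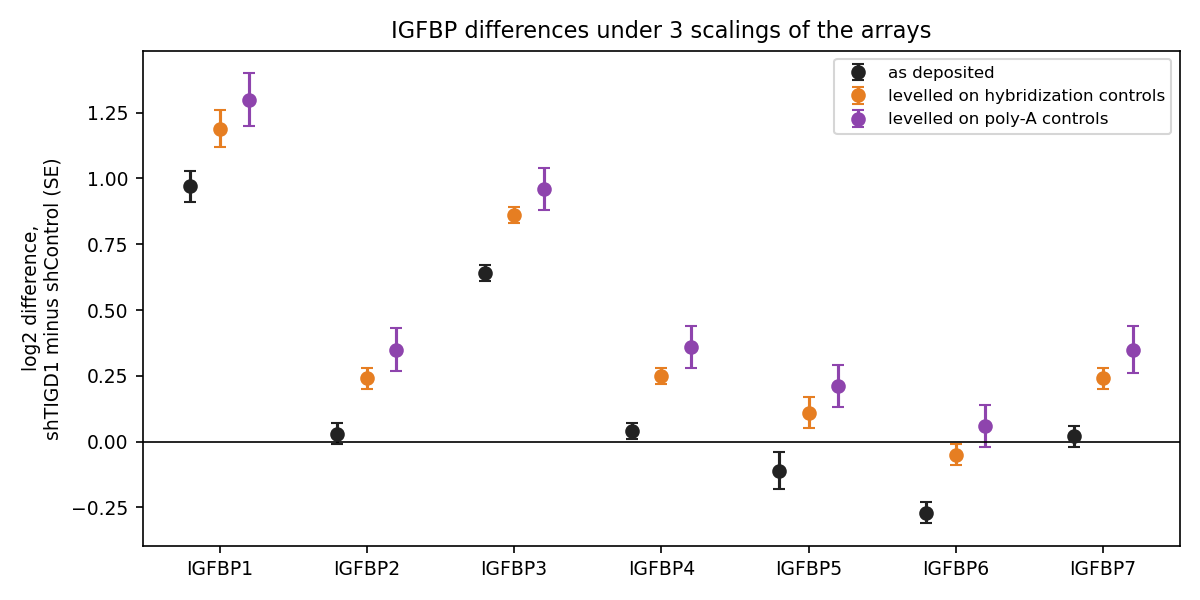
Log2 difference (shTIGD1 minus shControl) of the brightest probe set of each IGFBP gene as deposited and after levelling the arrays on hybridization or poly-A controls; bars are the SE. All 7 genes move up together, IGFBP1 and IGFBP3 stay highest, and IGFBP6 lies on both sides of 0.

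IGFBP1 to IGFBP6 each share a chromosome with a tensin gene, at distances that vary widely, while IGFBP7 does not. Tensin genes encode adaptor proteins of cell adhesions. IGFBP1 and IGFBP3 are neighbours on chromosome 7 with 0 protein-coding genes between them, and the next tensin is TNS3, 1353.9 kb from IGFBP3. IGFBP2 and IGFBP5 are neighbours on chromosome 2, with TNS1 1104.2 kb from IGFBP5 and TNP1 in between. IGFBP4 lies 18.1 kb from TNS4 on chromosome 17 and IGFBP6 33.3 kb from TNS2 on chromosome 12. On the TNS2 side of IGFBP6, SPRYD3 is nearer, at 18.3 kb. The 2 members that rose are thus 1 of these pairs. The 3 nearest measured protein-coding genes on each side of each locus, 30 in all, were added after other results had been seen. Of them 0 were higher, 6 were lower and 24 did not pass, against the 9.81% and 14% of all genes. Some of the 30 lie far from their locus, and those on 1 side of IGFBP7 are 4089.9 to 8209.2 kb away. Around IGFBP1 and IGFBP3 the 6 flanking genes, at 165.4 to 2042 kb, differed by -0.18 to 0.17. The lowest was TBRG4, a mitochondrial RNA-binding protein gene (adjusted p = 0.0215, up to 0.0651 and lost without any single array other than shTIGD1 replicate 1, and at 0.04 and 0.14 on control scaling), and the highest ADCY1, an adenylate cyclase gene (adjusted p = 0.196). TNS3 differed by 0.03. On chromosome 4, NOA1, a mitochondrial GTPase gene 53.2 kb from IGFBP7, fell by 0.35 (adjusted p = 0.00219), and was at -0.03 on poly-A scaling (0.703).

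Of the 4 tensins, 0 were higher and 2 lower, with a median of -0.09. TNS2 was -0.18 (adjusted p = 0.0341) and TNS4 -0.16 (0.0329). Both calls were fragile: that of TNS2 was lost without any single array other than shTIGD1 replicate 1 (adjusted p up to 0.102), and that of TNS4 without any of the 6 (up to 0.095). Both turned upward on control scaling, to 0.04 and 0.14 for TNS2 and 0.05 and 0.16 for TNS4.

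The genes whose values over the 6 arrays, centred on each gene's mean, lay nearest to the called members were found by Euclidean distance. For IGFBP1 these were ST6GAL2, a sialyltransferase gene, at 0.11 (difference 1.00), DMKN, an epidermal secreted protein gene, at 0.14 (0.94) and BEX2 at 0.16 (0.87). For IGFBP3 they were GANAB, a glucosidase subunit of the endoplasmic reticulum, at 0.03 (0.65), SLC39A9, a zinc transporter, at 0.04 (0.65) and STRA6, a retinol transporter, at 0.04 (0.64). For IGFBP6 they were MICALL2 (-0.28), FSCN1, an actin bundler (-0.24), and G6PC3, a glucose-6-phosphatase (-0.25), each at 0.04, and like IGFBP6 these had positive differences on poly-A scaling (0.04, 0.08 and 0.07). With 2 groups of 3 arrays, nearness mostly reflects a like difference between the groups.

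Genes around the IGFBPs were grouped in 10 lists by role. Of 103 measured members 19 were higher (18.4%), 22 lower (21.4%) and 62 did not pass, against 9.81% and 14% of all genes. Both shares are above the background, which includes many genes of low signal, and they were not compared among genes of like signal. The shares of all genes, 9.81% and 14%, also apply to the counts of each list. The lists were chosen with results known, so the counts are a description and single out no list.

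Among the ligands, IGF1 was low on all arrays and lower on the shTIGD1 arrays, at 4.90, 4.87 and 4.82 against 5.32, 5.16 and 5.18 on the shControl arrays. The difference was -0.36 (adjusted p = 0.00581), at signals in the lower part of the range, and 3 of its 5 probe sets were lower and 0 higher. The IGF1 call was lost on hybridization scaling (-0.14, adjusted p = 0.0825) and on poly-A scaling (-0.03, 0.733). IGFALS, the acid-labile subunit that joins IGFBP3 or IGFBP5 in the serum complex, was at -0.12 and did not pass. IGF2 and INS have only probe sets with several symbols and were not analysed here.

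Among 10 receptor and substrate genes 3 were higher and 2 lower, with a median of -0.07. These counts depend on the brightest probe sets and include GRB10, whose probe sets disagree. With the mean of all probe sets, or with the second brightest, 0 were higher. Control scalings gave 6 and 8 higher and 0 lower, and leaving out each array gave 0 to 1 lower. IGF1R, the main signalling receptor for both IGFs, had 10.13, 10.29 and 10.13 on the shTIGD1 arrays, against 9.73, 9.81 and 9.89 on the shControl arrays. Its groups did not overlap, and the difference was 0.37 (adjusted p = 0.00907), though 1 of its 7 probe sets passed. The mean of its probe sets gave 0.09 (adjusted p = 0.118) and the second brightest 0.10 (0.143), so the IGF1R call rests on the brightest probe set. INSR, the insulin receptor, was higher by 0.32 (adjusted p = 0.0029) with 1 of 5 probe sets passing. The mean of its probe sets gave 0.10 (adjusted p = 0.201) and the second brightest 0.24 (0.0822). GRB10, an adaptor that inhibits both receptors, gave 0.89 (adjusted p = 0.000198) on its brightest probe set and lower values on the other 2, both past the threshold, so no direction is given. GRB14, a related adaptor, was at -0.15 (adjusted p = 0.0205, up to 0.0724). That call was lost without shTIGD1 replicate 1 or 3 or shControl replicate 2 or 3, and the sign turned on control scaling (0.07 and 0.17). The substrate genes IRS1 (0.02) and IRS2 (-0.06) did not pass.

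Among 13 genes of IGFBP proteases and their inhibitors 2 were higher and 3 lower, with a median of -0.09. PLAT, the tissue plasminogen activator, had 6.47, 6.30 and 6.46 on the shTIGD1 arrays, against 5.87, 5.78 and 5.68 on the shControl arrays (difference 0.63, adjusted p = 0.00189). Of its 7 probe sets 4 were higher, and the second brightest did not pass (0.24, adjusted p = 0.0765). PLAU, the urokinase gene, fell by 0.48 (adjusted p = 0.000595), with all 3 probe sets lower, and was at -0.16 on poly-A scaling (0.0941). Plasmin, which both enzymes activate, can cleave several IGFBPs. STC2, an inhibitor of PAPP-A, had 8.83, 8.76 and 8.91 on the shTIGD1 arrays, against 9.42, 9.44 and 9.31 on the shControl arrays. It fell by 0.56 (adjusted p = 0.0016), on all 3 probe sets. ADAM12, a metalloprotease that cleaves IGFBP3 and IGFBP5, was at 0.31 (adjusted p = 0.0331), a call lost without any single array other than shControl replicate 2 (up to 0.0977) and with the mean of its probe sets (0.12). PAPPA, chosen after its values were seen, was at -0.09 and did not pass (adjusted p = 0.137). Its dimmer probe sets were lower: 5 of 8 passed, and the mean of all gave -0.23 (adjusted p = 0.00267), while control scaling gave 0.13 and 0.23.

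Among 12 relatives that carry an IGFBP domain 2 were higher and 1 lower, with a median of -0.01. CRIM1, a membrane regulator of bone morphogenetic proteins, was higher by 0.23 (adjusted p = 0.0057), and CCN1, a matricellular protein, by 0.20 (0.0128). HTRA3, a serine protease, was at -0.35 (adjusted p = 0.00498) with signals under 6, and did not pass on hybridization (-0.13) or poly-A scaling (-0.03).

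Among 10 binding partners 2 were higher and 3 lower, with a median of -0.04. ITGA5, which encodes the subunit of the fibronectin receptor that IGFBP1 binds, had 7.54, 7.36 and 7.50 on the shTIGD1 arrays, against 7.82, 7.79 and 7.86 on the shControl arrays. It fell by 0.35 (adjusted p = 0.00661), and its partner ITGB1 was at 0.04. The ITGA5 call was lost on hybridization scaling (-0.14, adjusted p = 0.0671) and on poly-A scaling (-0.03, 0.753). TMEM219, described as a cell death receptor for IGFBP3, was higher by 0.26 (adjusted p = 0.0142, and 0.0512 without shTIGD1 replicate 2). ITGB3, an integrin subunit, was at -0.32 with signals under 6 (adjusted p = 0.014, and 0.0517 without shTIGD1 replicate 3), and at 0.00 on poly-A scaling. LRP1, an endocytic receptor, was at -0.25 (adjusted p = 0.0278), with 1 of 4 probe sets passing. That call was lost without shTIGD1 replicate 2 or 3 or shControl replicate 1 or 3 (up to 0.0856), and poly-A scaling gave 0.07.

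Among 19 transcription factors known to act on IGFBP genes 1 was higher and 6 lower, with a median of -0.08. SMAD3, a mediator of TGF-beta signals, fell by 0.32 (adjusted p = 0.003) on all 5 probe sets, though at -0.10 on hybridization scaling (0.0677) and 0.00 on poly-A scaling. FOXO4 was at 0.31 (adjusted p = 0.00315), with 2 of 7 probe sets passing and -0.01 on the second brightest. FOXO1, an activator of IGFBP1 that insulin signalling restrains, was chosen after its values were seen and was at -0.25 (adjusted p = 0.0133). That call was lost without shTIGD1 replicate 1 (0.0506) and with the mean of its probe sets (-0.11), and poly-A scaling gave 0.07. WT1 was at -0.33 (adjusted p = 0.0276, up to 0.0805), a call lost without any shControl array or without shTIGD1 replicate 3, and on hybridization (-0.12) and poly-A scaling (-0.01). VDR, the vitamin D receptor, was at -0.28 (adjusted p = 0.0287, up to 0.0888), a call lost without shControl replicate 3 or shTIGD1 replicate 1 or 2, and at 0.04 on poly-A scaling.

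Of 12 FOXO and insulin-repressed genes, a class that includes IGFBP1 in liver, 3 were higher and 2 lower, with a median of 0.06. TXNIP, an inhibitor of thioredoxin and glucose uptake, had 7.35, 7.25 and 7.27 on the shTIGD1 arrays, against 6.83, 6.78 and 6.71 on the shControl arrays. It was higher by 0.52 (adjusted p = 0.00131) on all 5 probe sets. CITED2, a transcriptional coregulator, fell by 0.30 (adjusted p = 0.00837), and was at -0.08 on hybridization scaling, 0.02 on poly-A scaling and -0.17 on its second probe set, none of which passed. SIRT1, a deacetylase, was at 0.23 (adjusted p = 0.0162), lost without shControl replicate 1 or shTIGD1 replicate 3 (up to 0.0553). PDK4, a pyruvate dehydrogenase kinase, was at 0.15 (adjusted p = 0.0478), lost without any single array other than shTIGD1 replicate 3 (up to 0.126).

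Of 11 hypoxia response genes, a class to which IGFBP1 and IGFBP3 also belong, 4 were higher and 0 lower, with a median of 0.12. The shares of all genes were 9.81% higher and 14% lower. All 11 had a mean signal of at least 6 in a group, while all genes include dimmer ones. Whether this list bears on IGFBP1 and IGFBP3 was not tested. ERO1A, an oxidase of the endoplasmic reticulum, was higher by 0.30 (adjusted p = 0.0129), and SLC2A1, a glucose transporter, by 0.21 (0.00843). BNIP3, a mitophagy receptor, was at 0.16 (adjusted p = 0.0334) and at -0.03 on its second probe set. Its call was lost without shControl replicate 1 or 3 or shTIGD1 replicate 1 or 3 (up to 0.106). PGK1, a glycolytic enzyme, was at 0.12 (adjusted p = 0.0372), lost on leaving out any 1 of the 6 arrays (up to 0.108). VEGFA (0.00) and LDHA (0.04) did not pass.

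Of 10 glucocorticoid and cAMP response genes 2 were higher and 2 lower, with a median of 0.04. DUSP1, a phosphatase of MAP kinases, was higher by 0.22 (adjusted p = 0.011) on all 4 probe sets. FKBP5, a chaperone of the glucocorticoid receptor, was at 0.29 (adjusted p = 0.0178), lost without shControl replicate 1 or shTIGD1 replicate 1 or 3 (up to 0.0611). PER1, a clock gene, was at -0.43 (adjusted p = 0.0259), lost without shControl replicate 1 or 2 or shTIGD1 replicate 1 or 3 (up to 0.0775) and on hybridization (-0.21) and poly-A scaling (-0.10). NR3C1, the glucocorticoid receptor, was at -0.15 (adjusted p = 0.0459), lost without any single array other than shControl replicate 1 (up to 0.134), and turned to 0.07 and 0.17 on control scaling.

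**Figure D4:**
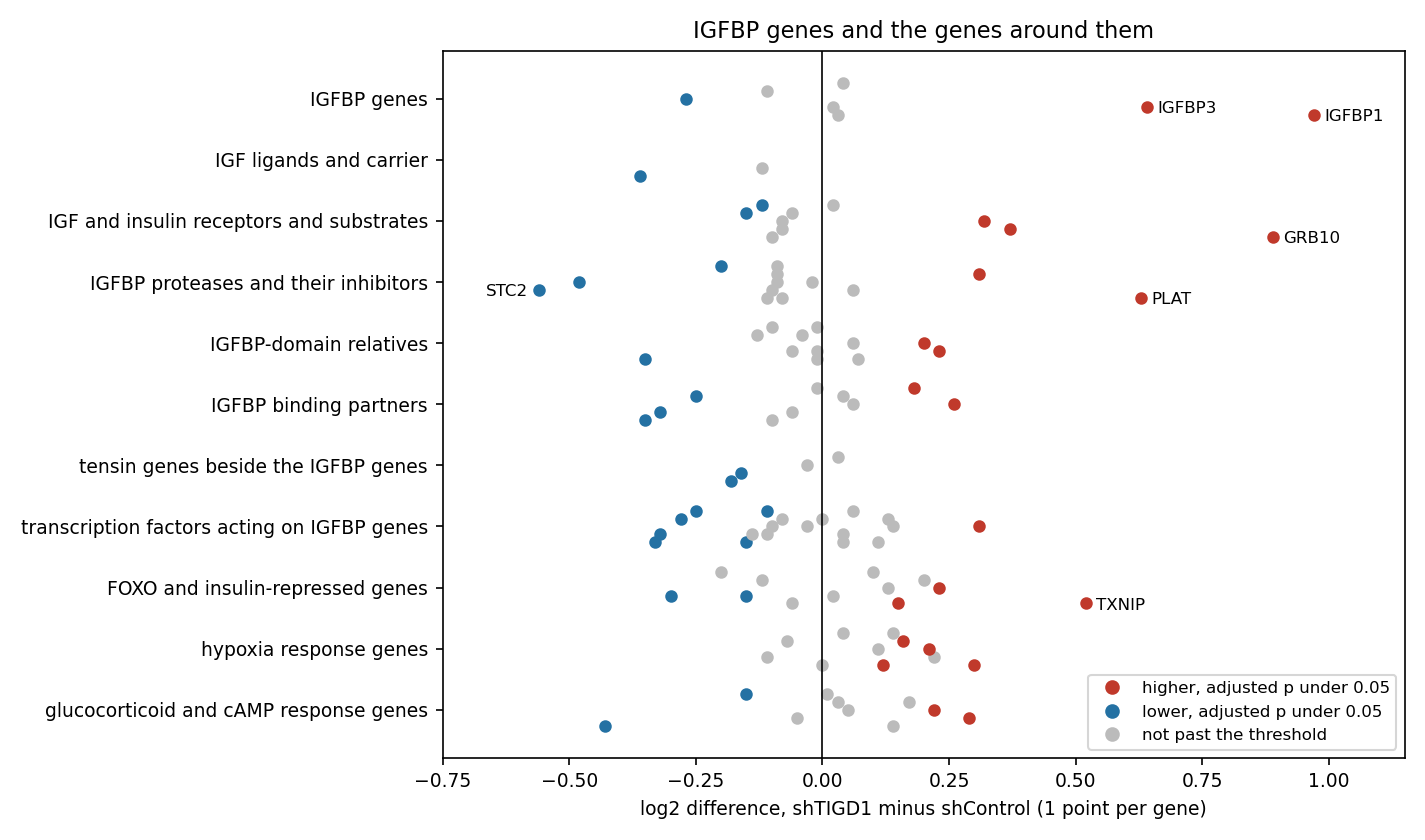
Log2 difference (shTIGD1 minus shControl) of the measured genes of each list, 1 point per gene, coloured by the call, with the largest differences named. IGFBP1 and IGFBP3 lie at the right of the plot, GRB10, PLAT and TXNIP are the other named genes to the right, and every list holds points not past the threshold.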

How the data were processed

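The authors deposited log2 signals for each probe set. The submitters' processing notes name GCOS and RMA, and no versions are given in the sources used here. That the base is 2 was read from the values' range. RMA makes the distributions of the arrays alike, so a shift common to most genes is removed. Of 49395 probe sets, 102 were controls, 45278 had 1 symbol, 1333 several and 2682 none. The brightest probe set over all arrays stood for each of 18244 genes, and all 49293 non-control probe sets were fitted separately. Groups were compared two-sided with limma 3.58.1 (lmFit, eBayes) under R 4.3.3, adjusted by Benjamini-Hochberg over all genes or probe sets, threshold 0.05, after the fit had been tested on simulated data. Tables and figures were made with Python 3.11.15, pandas 2.3.3 and matplotlib 3.10.9. No array was a copy of another, with equal values at 184 probe sets at most.

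The members, the 10 lists of genes around them and the marker lists were chosen with earlier results of these data known. Of 111 list genes, 103 had a value, and the others were not analysed here. Genes named are the 7 members with their probe sets, TIGD1, from every list at most 4 genes, the largest differences past the threshold, and the 3 genes nearest to each called member. PAPPA, FOXO1, TBRG4, ADCY1, NOA1 and list members given as not past the threshold were chosen after their values were seen. Alternatives were other probe set choices, repeated quantile normalization, levelling on medians or on control probe sets, filters at signals of 5 and 6, a trended and robust eBayes, weights for arrays, a replicate block, and leaving out each array. Scan batches were not analysed here.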

Additional observations from a re-analysis of the deposited data

How the results depend on the processing

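IGFBP1 (0.92 to 1.30) and IGFBP3 (0.36 to 0.96) kept direction and call under all 17 alternatives. Not all of these could move the values. IGFBP1 has 1 probe set, so the probe set choices leave its difference as it is. The signal filters, the eBayes settings and the replicate block can change only the adjusted p. Control scalings, first hybridization and then poly-A, gave 0.24 and 0.35 for IGFBP2 and for IGFBP7, 0.25 and 0.36 for IGFBP4, 0.11 and 0.21 for IGFBP5, -0.05 and 0.06 for IGFBP6 and 0.16 and 0.27 for TIGD1. They gave 5 and 6 IGFBP genes higher and 0 lower, 12 and 14 IGFBP probe sets higher and 0 lower, 9290 and 12435 genes higher against 376 and 97 lower, and 61 and 76 list members higher against 2 and 1 lower. Their added value per array causes these moves. With probe sets averaged per gene, or with the second brightest, IGFBP4 was 0.16 or 0.21, IGFBP7 -0.13 or -0.16, and 2 IGFBP genes were lower. The second brightest also gave -0.24 for GRB10, -0.01 for FOXO4 and -0.03 for BNIP3. The count of IGFBP probe sets lower was 1 with trend and robust settings and with a signal of at least 6. Probe sets that turned under control scaling were those of IGFBP5 (0.11 and 0.21, 0.16 and 0.27, 0.16 and 0.27, 0.12 and 0.22, and 0.09 on poly-A alone), IGFBP6 (0.06) and IGFBP7 (0.05 and 0.16, 0.07 and 0.18, and 0.07 on poly-A alone). Other genes that turned under both were GRB14 (0.07, 0.17), TNS2 (0.04, 0.14), TNS4 (0.05, 0.16), NR3C1 (0.07, 0.17), PAPPA (0.13, 0.23) and TBRG4 (0.04, 0.14). On poly-A controls alone they were ITGB3 (0.00), LRP1 (0.07), SMAD3 (0.00), VDR (0.04), CITED2 (0.02), MICALL2 (0.04), FSCN1 (0.08), G6PC3 (0.07) and FOXO1 (0.07). Leaving out each array gave 1177 to 1474 genes higher and 1564 to 1912 lower, 1 to 2 IGFBP probe sets lower and 10 to 15 list members lower; fewer samples enter these fits. No sign that the replicate numbers pair the samples was seen in these values. Deviations of arrays with the same number correlated at -0.03, -0.13 and -0.09, and 0 of 3 shTIGD1 arrays correlated best with its own number. With 3 normalized arrays per group, this cannot show that the cultures or hybridizations were unpaired. With the replicate block 1098 genes were higher and 1293 lower, 1 IGFBP probe set was lower, 10 list members were higher and 9 lower, and no IGFBP gene changed its call.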
